A study of Mus musculus with 12 samples.

Results

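G2 and G1, among 4 groups of mice that the study coded G1 to G4, were set against each other across all genes expressed in the soleus, a hind limb muscle built mainly of slow and fast oxidative fibres. G2 and G1 held 3 mice each of 12 mice in all. Values were at hand for 23354 of 28997 genes, and 15494 of these had a total of at least 100 normalised reads over the 12 libraries, a mean of 8.33 reads per library. The authors' deposited table for G2 against G1 lists 15652 genes, of which 1953 have a log2 of exactly 0 and 0 lie above it. The remaining 7702 of the 15494 were rebuilt from the comparisons G3 against G1, G4 against G3 and G4 against G2. The 5643 genes that were neither listed nor above that total were left out, save that a value is given below for Nox1.

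The mice of the study were Cdh5cre-WT or Cdh5Cre-NOX1CKO, and each genotype was kept on chow diet or on high fat diet for 8 weeks, with 3 mice for each pair of genotype and diet. Cdh5 encodes VE-cadherin of endothelial cells, so the NOX1 deletion that the name NOX1CKO stands for is aimed at the vessel lining and not at muscle fibres, and the genotype names place a Cdh5-driven Cre in all 4 groups, G1 and G2 included. NOX1 is one of the NADPH oxidases, enzymes that produce superoxide. Nothing in the labels says which genotype and diet each code stands for, and the orders in which the groups are given do not settle it. The codes are therefore kept, and no difference is put down to diet or knockout. Age and sex were not given in the sources used here. Transcripts of the Y chromosome were present in both groups, with derived levels of Ddx3y of 1630 normalised reads per library in G1 and 1635 in G2, while Xist stood at 11.9 and 22.1.

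Muscle fibres burn fatty acids in mitochondria, and the nuclear receptors PPARα and PPARδ, which bind fatty acids, switch on genes for fat uptake, fat entry into mitochondria and the sparing of glucose. In fasting these genes are known to rise together, and after feeding to fall. Slow fibres carry their own isoforms of myosin, troponin and tropomyosin, which differ from those of fast fibres, and the share of each fibre type sets how a muscle contracts and which fuel it uses.

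The tables hold no value per mouse. A level for each group was derived from the total of a gene and its fold changes, and a standard error was implied by each log2 and its p-value; the same values give an implied variation between mice, taken as equal in all groups. Over the 15494 genes the median implied standard error of the log2 was 0.176 (quartiles 0.116 and 0.308), and the median implied variation between mice was 13.2%. Libraries held a mean of 24905255 normalised reads, with size factors from 0.931 to 1.06 in G1 and from 0.986 to 1.25 in G2. A single gene would have needed a p of 2.14e-06 to pass the adjustment, which at the median standard error is a log2 of 0.83 or a 1.78-fold difference. All 10 marker genes of skeletal muscle fibres were measured, and they summed to 2229780 reads per library in G1 and 2419990 in G2. In a whole muscle, fewer cells of a type and less RNA per cell cannot be told apart.

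Ucp3 was the 1 gene that passed. Ucp3, a carrier of the inner mitochondrial membrane found in muscle and known to rise with fatty acid supply, lies on chromosome 7 from 100472990 to 100486432 (GRCm38). Its derived level was 2442 normalised reads per library in G1 (implied standard error 392) and 683 in G2 (111). In the other groups it stood at 2295 in G3 and 2419 in G4, so that G2 was the lowest of the 4 and the other 3 lay near each other. Ucp3 fell by 1.84 on the log2 scale in the authors' deposited table, which is 3.57-fold lower in G2, with an implied standard error of 0.33. Its unadjusted p was 2.31e-08 and its adjusted p 5.39e-04 (Benjamini-Hochberg over the deposited and rebuilt p-values of 23354 genes). The step-up value in the authors' deposited table was 6.69e-04. The call ended under a Student t distribution with 8 degrees of freedom in place of the normal, where the p of Ucp3 became 5.18e-04 and its adjusted p (Benjamini-Hochberg) became 1. Its neighbour and closest relative Ucp2, which is expressed more widely, had a log2 of -0.28 with an implied standard error of 0.20 in the authors' deposited table.

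That 1 called gene is 0.00428% of those tested, and the next smallest adjusted p (Benjamini-Hochberg) was 1. At an unadjusted p under 0.05, 195 of the 15494 genes were lower in G2 (1.26%) and 169 higher (1.09%), 2.35% in all. The 11 genes with an unadjusted p under 0.001 made up 0.0710%. Among all genes 50.3% lay below 0 and the median log2 was -0.00099. Values of single genes below are therefore descriptions, and each count of a gene group is to be read beside these shares.

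**Figure D1:**
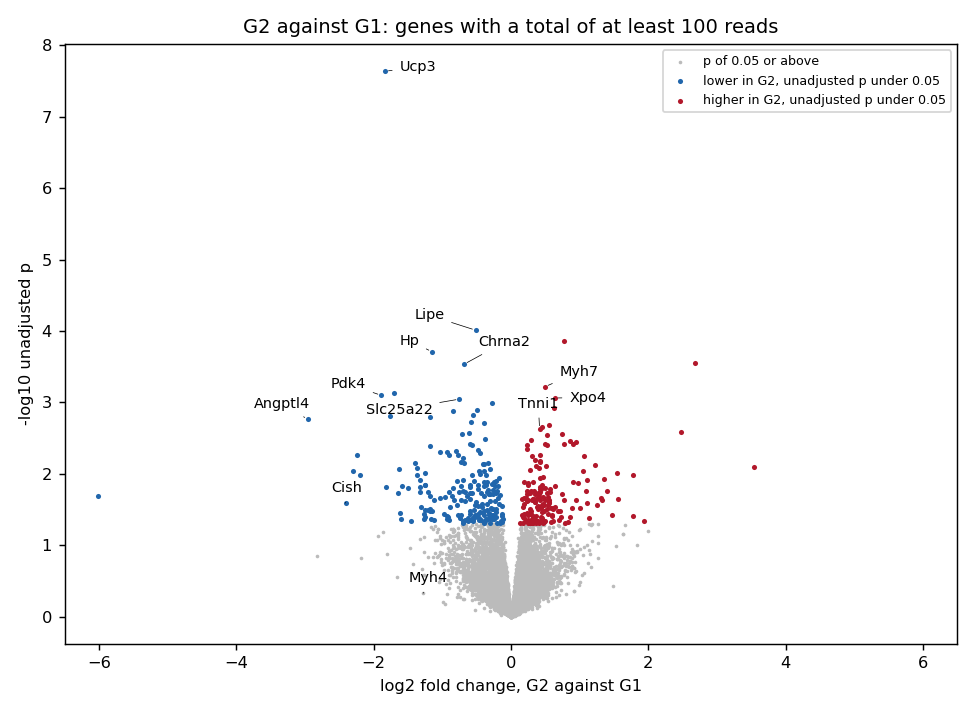
Log2 fold change of G2 against G1 (x axis) and -log10 of the unadjusted p (y axis) for 15494 genes with a total of at least 100 normalised reads. Blue points are lower and red points higher in G2 at an unadjusted p under 0.05. Ucp3 stands alone at a p of 2.31e-08, above Lipe and all other genes.

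Genes of the fasting and PPAR response were lower in G2 as a group. All 17 members with a total of at least 100 (of 19 listed, Fgf21 and Creb3l3 had no match) had a log2 below 0, with a median of -0.39. All 17 had their lowest level of the 4 groups in G2, as did 26.0% of all genes. A gene lowest in G2 lies below G1 as well, so these counts are not separate results. For some members G1 itself lay well below G3 and G4, such as Acot2 at 1321 in G1, 2304 in G3 and 2265 in G4. Of the 17, 9 had an unadjusted p under 0.05 and 1 was called, Ucp3, beside 1.26% lower over all genes. This direction was known for these genes before the list was written, so the count is no independent evidence of it.

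The regulators of fuel choice had the largest differences. Pdk4 (chromosome 6, 5483351 to 5496309), the kinase that shuts off pyruvate dehydrogenase and so spares glucose, had derived levels of 27653 normalised reads per library in G1 and 7459 in G2. Its levels in G3 and G4 were 32512 and 37389, well above G2 and near G1. Pdk4 had a log2 of -1.89 with an implied standard error of 0.56 in the authors' deposited table (unadjusted p = 7.99e-04). Angptl4, which is secreted and inhibits lipoprotein lipase, lies on chromosome 17 from 33773750 to 33781830. It stood at 91.4 in G1 and 11.8 in G2, and at 134 in G3 and 261 in G4. Its log2 of -2.96 in the authors' deposited table was larger in size than that of Ucp3, with an implied standard error of 0.94 (unadjusted p = 0.00172). Ucp3 varied least of the 3, with an implied variation between mice of 27.8%, against 47.8% for Pdk4 and 77.3% for Angptl4.

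Enzymes and binding proteins for fatty acids followed with smaller differences. Acot2, a mitochondrial acyl-CoA thioesterase, went with a log2 of -0.48 in the authors' deposited table, from 1321 to 950 normalised reads per library. Mlycd, which breaks down the malonyl-CoA that blocks fat entry into mitochondria, had -0.41 in the authors' deposited table. For the carnitine palmitoyltransferase Cpt1a the authors' deposited table gave -0.39, while its muscle isoform Cpt1b, at 13090 reads per library in G1 and 12496 in G2, had -0.07. Because 81.4% of the exonic bases of Cpt1b are shared with a predicted gene on the same strand, the value of Cpt1b is uncertain. That predicted gene had a total of 5653 normalised reads over the 12 libraries, against 164883 for Cpt1b. Fabp3, the fatty acid binding protein of heart and slow muscle, was abundant, with 30889 reads per library in G1 and 24670 in G2, and had -0.32 in the authors' deposited table. The lipid droplet coats Plin2 and Plin5 had -0.34 and -0.46 in the authors' deposited table. Lipoprotein lipase (Lpl), the enzyme that Angptl4 inhibits, had -0.08 and the fatty acid transporter Cd36 had -0.19, both with an unadjusted p above 0.05 in the authors' deposited table.

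**Figure D2:**
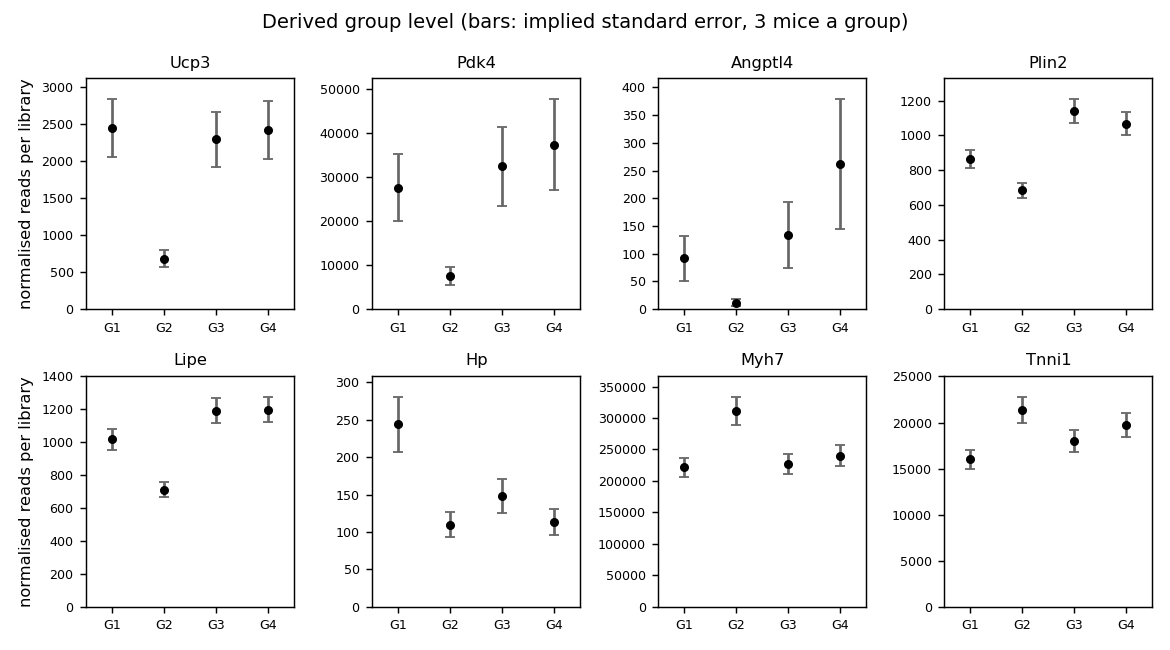
Derived level (normalised reads per library, y axis from 0) of 8 genes in G1 to G4, with the implied standard error as bars and 3 mice a group. Ucp3 stands at 683 in G2 and above 2200 in the other 3 groups, whereas Myh7 is highest in G2 at 311382.

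PPARs bind DNA together with RXR at paired copies of the half-site AGGTCA, so the start regions of these genes were searched for it. In the RefSeq promoter windows (GRCm38.p6, 250 bases before to 50 after a start), AGGTCA was found on either strand in 5 of 13 genes of the list with a window, 38.5%, and in 15.1% of 10549 genes with a total of at least 100. Angptl4 was not among the genes with a window. Pdk4 and Acot2 held no AGGTCA on either strand in the 250 bases before the start. A TATAAA box was in 0 of the 13 and in 9.17% of all genes. The E-box CANNTG was in all 13 and in 67.8% of all genes, and the MCAT element CATTCC in 3 of the 13 and in 14.7%. Since the list was drawn up as PPAR response genes, its share of half-sites is no result of G2 against G1. The letters alone show neither that a receptor binds there nor that it does not. The 250 bases before the start are shown for the 3 genes with a half-site in that stretch and an unadjusted p under 0.01, with the half-site in capitals and 5′ to 3′ on the strand of the gene. Ucp3 (chr7:100472741-100472990, plus strand) holds it at -149 and -44 from the start, Plin2 (chr4:86670060-86670309, minus strand) at -218 as the reverse complement TGACCT, and Plin5 (chr17:56117549-56117798, minus strand) at -170.
Ucp3: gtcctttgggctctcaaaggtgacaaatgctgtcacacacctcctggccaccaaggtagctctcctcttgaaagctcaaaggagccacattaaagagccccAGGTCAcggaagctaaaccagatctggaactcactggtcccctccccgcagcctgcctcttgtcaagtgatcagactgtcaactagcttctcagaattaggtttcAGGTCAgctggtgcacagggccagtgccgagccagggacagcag
Plin2: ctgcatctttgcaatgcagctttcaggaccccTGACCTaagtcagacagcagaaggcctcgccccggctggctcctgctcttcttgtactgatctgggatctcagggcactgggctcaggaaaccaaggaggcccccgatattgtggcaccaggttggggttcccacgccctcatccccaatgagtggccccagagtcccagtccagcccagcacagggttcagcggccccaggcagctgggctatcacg
Plin5: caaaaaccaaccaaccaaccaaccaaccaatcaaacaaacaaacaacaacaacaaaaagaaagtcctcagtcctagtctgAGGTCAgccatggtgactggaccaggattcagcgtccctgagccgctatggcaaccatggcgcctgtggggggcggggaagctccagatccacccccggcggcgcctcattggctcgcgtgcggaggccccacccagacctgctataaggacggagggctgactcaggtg

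Fatty acid oxidation itself differed little but evenly. Of 20 enzymes of the mitochondrial spiral and its entry, 19 had a log2 below 0 and the median was -0.09. In G2, 17 had their lowest level of the 4 groups, as did 26.0% of all genes. The list summed to 152096 normalised reads per library in G1 and 141079 in G2. It stood at 196277 in G3 and 185889 in G4, so G1 too lay below both. In G4 against G3, 17 of the 20 also lay below 0, with a median of -0.06. In G2 against G1, beside 1.26% lower over all genes, 7 were lower and 0 higher at an unadjusted p under 0.05, and none was called. The 7 were the 2 subunits of the trifunctional protein, Hadha and Hadhb (both -0.13), the dehydrogenase Hadh (-0.13), the isomerase Eci2 (-0.15), the electron acceptor Etfdh (-0.15), the inner carnitine transferase Cpt2 (-0.19) and the acyl-CoA synthetase Acsl1 (-0.23), all in the authors' deposited table. These genes are abundant and vary little between mice, with a median implied variation of 6.02% in the list, so that small differences in level reached that threshold. Acsl1, the largest of them, stood at 20286 normalised reads per library in G1 and 17264 in G2. The enzymes Decr1 and Ech1, chosen after their values were seen, had -0.09 and -0.03 in the authors' deposited table.

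Receptors and coactivators of this programme lay on both sides of 0. Of 14 members, 10 lay below 0 with a median of -0.08, and none had an unadjusted p under 0.05. They ranged from -0.31 for the coactivator Ppargc1b in the authors' deposited table to a rebuilt 0.47 for the orphan receptor Nr4a1. The PPARs themselves differed in sign, with rebuilt values of 0.07 for Ppara and 0.20 for Ppard, and -0.23 for Pparg in the authors' deposited table. Among the most abundant, the retinoid receptor Rxra had -0.02, the oestrogen-related receptors Esrra and Esrrg had -0.07 and -0.11, and the coactivator Lpin1 had -0.08, in the authors' deposited table.

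Among the lipases that release stored fat, Lipe and Mgll had an unadjusted p under 0.05 and lay lower in G2, and Pnpla2, which makes the first cut, had -0.16 with an unadjusted p of 0.165 in the authors' deposited table. Hormone-sensitive lipase Lipe (chromosome 7, 25379527 to 25398710), which cuts diacylglycerol, had derived levels of 1017 in G1 and 712 in G2, with 1191 and 1196 in G3 and G4. It had a log2 of -0.51 with an implied standard error of 0.13 in the authors' deposited table, and its unadjusted p of 9.78e-05 was the smallest of the named genes after that of Ucp3. Mgll, the monoacylglycerol lipase that completes the sequence, had -0.38 in the authors' deposited table. Of the 10 genes of lipolysis and lipid droplets, 8 lay below 0 with a median of -0.26. Fat-making genes did not share this, with a median of 0.01 over 17 genes and 8 below 0. Gpam, which starts triglyceride synthesis, had -0.37 in the authors' deposited table (unadjusted p = 0.0144), while the rebuilt log2 of the fatty acid synthase Fasn was 0.70 with an implied standard error of 0.45. Cholesterol genes had a median of 0.03 over 14 members, and Mvd, an enzyme of that pathway that the list did not hold, had a rebuilt 0.45 (unadjusted p = 0.00219).

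Fat cells lying in or on the muscle also express Lipe, Mgll, Plin2 and Angptl4, and their markers were lower in G2. Of 11 adipocyte markers with a total of at least 100, 10 had a log2 below 0, and the median was -0.56. Adiponectin (Adipoq) had -0.78, leptin (Lep) -0.77 and adipsin (Cfd) -0.77 in the authors' deposited table, none of them with an unadjusted p under 0.05. Fabp4, which capillaries also express, had -0.25 in the authors' deposited table with an unadjusted p of 0.0130. The one member above 0 was Car3, a carbonic anhydrase that slow muscle fibres make in bulk, at a rebuilt 0.39. Without Car3 the markers summed to 6252 normalised reads per library in G1 and 4907 in G2, 78.5% of G1, with 5288 in G3 and 6235 in G4. Without Fabp4 as well, a choice made after the values were seen, they summed to 1572 in G1 and 980.0 in G2, 62.3% of G1, with 1129 in G3 and 1152 in G4. No marker found in the tables was at 0, Ucp1 had no match there, and the markers' part in the values of fasting and PPAR genes, lipases and droplet genes was not tested.

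Slow fibre genes were higher in G2 as a group. Of 18 members, 15 had a log2 above 0, the median was 0.23, and 13 had their highest level of the 4 groups in G2, as did 25.7% of all genes. At an unadjusted p under 0.05, 8 were higher and 0 lower, beside 1.09% higher over all genes, and none was called. Earlier results of these same data had shown this direction before the list was written, so the count is no independent evidence of it. Summed over the list, slow fibre genes came to 758276 normalised reads per library in G1 and 932063 in G2, 123% of G1. In G4 against G3, 14 of the 18 members also lay above 0, with a median of 0.10.

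Myh7 had the largest value of the list. Myh7 (chromosome 14, 54970684 to 54994626), the slow myosin heavy chain, had derived levels of 221530 in G1 and 311382 in G2, with 226936 in G3 and 240300 in G4. Its rebuilt log2 was 0.49 with an implied standard error of 0.14 (unadjusted p = 6.06e-04). Myh7b, a related slow myosin at 1000 and 1337 reads per library, had a rebuilt 0.42, and the light chains Myl3 and Myl2 had rebuilt values of 0.16 and 0.22, the latter with an unadjusted p of 0.135. All 3 subunits of the slow troponin complex lay close together. The inhibitory subunit Tnni1 had 0.42, the calcium-binding subunit Tnnc1 had 0.42 and the tropomyosin-binding subunit Tnnt1 had 0.32, as rebuilt log2 values with implied standard errors of 0.14, 0.16 and 0.14. Slow tropomyosin Tpm3 had a rebuilt 0.34, and the Z-disc protein Myoz2 a rebuilt 0.24 with an implied standard error of 0.08. Members that lay below 0 were the stretch-responsive Csrp3 and Ankrd2 and the calcium pump regulator Pln, at -0.35, -0.05 and -0.10 in the authors' deposited table, with implied variation between mice from 34.4% to 48.8%.

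Fast fibre genes lay on the other side of 0 by less. Of 17 members, 15 had a log2 below 0 and the median was -0.13, but none had an unadjusted p under 0.05 and 0 had their lowest level of the 4 groups in G2. The fast troponins Tnnt3, Tnni2 and Tnnc2 had -0.13, -0.13 and -0.14 in the authors' deposited table, against 0.32 to 0.42 for the slow forms. Myh2, the myosin of fast oxidative fibres and the most abundant of the heavy chains, had a rebuilt 0.05. Myh1 had -0.09 in the authors' deposited table. Myh4, the myosin of the fastest fibres, stood at 58846 reads per library in G1 and 24222 in G2, with 18192 in G3 and 19194 in G4. Its log2 of -1.28 in the authors' deposited table had an implied standard error of 1.77, since its implied variation between mice was 151%, the largest of the fibre genes, and Actn3, Mybpc2 and Pvalb followed with 103%, 65.4% and 62.6%.

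Per length of transcript, Myh7 made up 24.9% of the reads of the 4 adult heavy chains Myh7, Myh2, Myh1 and Myh4 in G1 and 33.1% in G2. Myh2 held the largest share in both groups, with 41.9% in G2. The share of Myh1 was 25.3% in G1 and 22.4% in G2, and that of Myh4 6.85% and 2.66%. In G3 and G4 the share of Myh7 was 29.1% and 29.8%, between G1 and G2, although the level of Myh7 itself was close to that of G1. No error can be given for these shares, since they combine genes whose variation together is not in the tables.

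**Figure D3:**
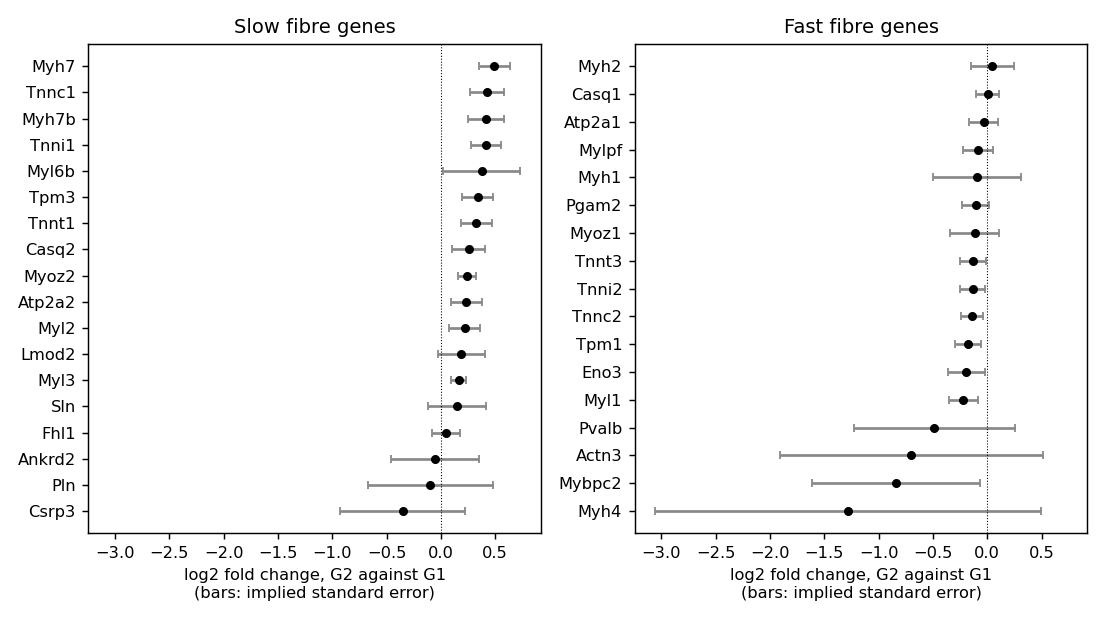
Log2 fold change of G2 against G1 for 18 slow fibre genes (left) and 17 fast fibre genes (right), with the implied standard error as bars. Of the slow genes 15 lie right of 0, with Myh7 furthest at 0.49, and among the fast genes Myh4, Mybpc2, Actn3 and Pvalb lie left of 0 with long ones.

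Some further muscle genes were named by their small p or set beside Myh7 after their values were seen. Mhrt, a non-coding transcript of the opposite strand, had a rebuilt 0.53, but 39.9% of its exonic bases lie over Myh7, so reads of the wrong strand cannot be told apart from its own. Myh6, the neighbouring cardiac myosin, had a rebuilt 0.39 with an unadjusted p of 0.0210. The cytoskeletal adaptor Obsl1 had a rebuilt 0.23 and the muscle RNA-editing relative Apobec2 a rebuilt 0.29. General muscle markers such as Des, at a rebuilt 0.02, and the calcium channels Ryr1 (rebuilt 0.12) and Cacna1s (rebuilt 0.03) differed by less, and 15 genes of calcium release had a median of 0.03 with none at an unadjusted p under 0.05.

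Carbohydrate metabolism showed small values. Glycolysis genes had a median log2 of -0.10, with 10 of 13 below 0, and glycogen genes one of -0.06, with no member at an unadjusted p under 0.05 in either list. In the authors' deposited table the muscle phosphofructokinase Pfkm had -0.06, pyruvate kinase Pkm -0.14 and the glycogen phosphorylase Pygm -0.12. The heart-type lactate dehydrogenase Ldhb had a rebuilt 0.01. Genes of insulin signalling had a median of 0.07, and the glucose transporter Slc2a4 a rebuilt 0.05 with an implied standard error of 0.07.

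Mitochondrial genes were slightly lower in G2 across many members. All 13 protein-coding genes of the mitochondrial genome had a log2 below 0, with a median of -0.12, and all 13 were lowest of the 4 groups in G2, yet 0 had an unadjusted p under 0.05. These 13 come from shared precursor transcripts, so they do not vary on their own. The most abundant, mt-Co1, stood at 1585460 normalised reads per library in G1 and 1493860 in G2. Among nuclear genes 32 of 37 of complex I lay below 0 with a median of -0.04, 28 of 37 of complexes II to V with -0.05, and 14 of 15 of the tricarboxylic acid cycle with -0.05. The Rieske protein Uqcrfs1 of complex III (-0.18) and cytochrome c, Cycs (-0.28), had an unadjusted p under 0.05 in the authors' deposited table. Citrate synthase Cs, a common index of mitochondrial content, had -0.05 with an implied standard error of 0.05 in the authors' deposited table. Genes of mitochondrial dynamics and biogenesis had a median of -0.03, with 12 of 16 below 0. The fusion genes Mfn1 and Mfn2 had -0.06 and -0.01 in the authors' deposited table, and the mitophagy gene Pink1 a rebuilt 0.01. Carriers of the inner membrane gave 2 of the smallest p-values after Ucp3. The glutamate carrier Slc25a22 had -0.75 and the orphan carrier Slc25a34 had -0.58 in the authors' deposited table, and the calcium-regulated ATP carrier Slc25a23 had a rebuilt 0.31.

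**Figure D4:**
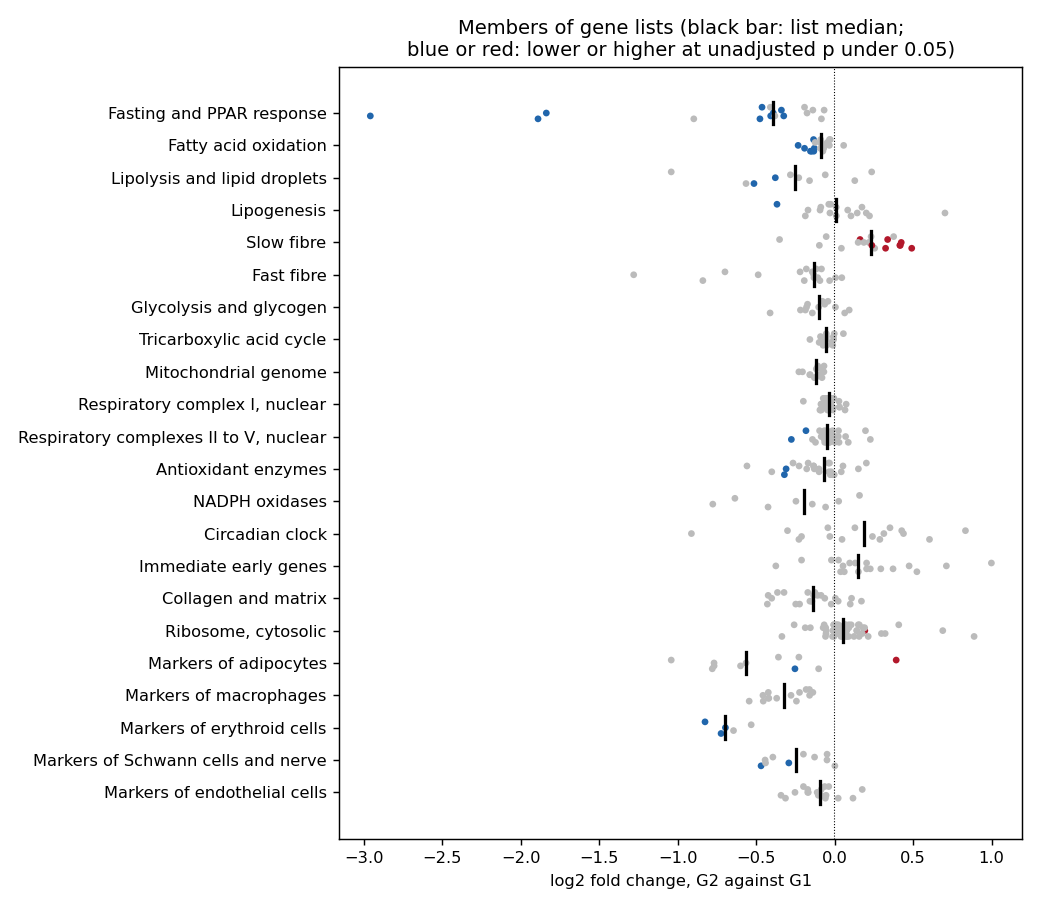
Log2 fold change of G2 against G1 (x axis) for each member of 22 gene lists, with the list median as a black bar. Blue or red points have an unadjusted p under 0.05. The fasting and PPAR list lies wholly left of 0 with a median of -0.39, and the slow fibre list has its median at 0.23.

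The targeted gene could not check the groups. Nox1 (chromosome X, 134086421 to 134221956) had a total of 25.2 normalised reads over all 12 libraries, under the 100 set for rebuilding. Rebuilt all the same, its log2 was 0.64 with an implied standard error of 1.22, and it entered no count or adjustment. Of its exonic bases 12.1% overlap Cstf2 on the opposite strand. Cdh5, whose promoter drives the Cre, had -0.09 with an implied standard error of 0.14 in the authors' deposited table. Among 8 NADPH oxidase genes with a total of at least 100, 6 lay below 0 with a median of -0.19 and none had an unadjusted p under 0.05. The catalytic subunits Cybb and Nox4 were scarce, at 73.8 and 61.0 reads per library in G1 and 66.9 and 45.5 in G2. Antioxidant genes had a median of -0.07, with 22 of 26 below 0. The 2 secreted ones, the extracellular superoxide dismutase Sod3 (-0.31) and the plasma glutathione peroxidase Gpx3 (-0.32), had an unadjusted p under 0.05 in the authors' deposited table. Nos1, the neuronal nitric oxide synthase of the fibre membrane, had -0.56 with an implied standard error of 0.18 in the authors' deposited table (unadjusted p = 0.00150), with 2342 reads per library in G1 and 1592 in G2, beside 1579 in G3 and 1875 in G4. G2 and G3 were thus alike and below G1 for Nos1, unlike Ucp3 and Pdk4.

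Endothelial markers had a median of -0.10, with 15 of 18 below 0 and none at an unadjusted p under 0.05. Pecam1 had -0.06 in the authors' deposited table, and the receptors Flt1 and Ptprb had rebuilt values of 0.12 and 0.02. Summed, the markers came to 24135 reads per library in G1 and 22846 in G2. Marker genes of pericytes and smooth muscle had a median of 0.05.

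Among genes of blood and immune cells, haptoglobin, Lrg1, Vsir and 3 erythroid markers had an unadjusted p under 0.05 and lay lower in G2. No marker in the macrophage list had one. Haptoglobin (Hp), which binds free haemoglobin and is made by liver, fat and neutrophils, stood at 244 normalised reads per library in G1 and 110 in G2, beside 149 in G3 and 113 in G4. Its log2 was -1.15 with an implied standard error of 0.31 in the authors' deposited table (unadjusted p = 1.96e-04). G2 and G4 were alike for Hp, and G1 stood apart from the other 3. All 7 acute phase genes with a total of at least 100 (of 15 listed) lay below 0, with a median of -0.60, and Hp was the one with an unadjusted p under 0.05. These 7 summed to 5827 reads per library in G1 and 5020 in G2, but G3 and G4 were lower still at 4003 and 4147. The serum glycoprotein Lrg1 had -0.40 in the authors' deposited table. Erythroid markers lay below 0 in 5 of 5, with a median of -0.70. Hba-a1 had -0.72, Hbb-bs -0.70 and the haem enzyme Alas2 -0.83, each with an unadjusted p under 0.05 in the authors' deposited table. Globin genes have near-identical copies, so the split between Hba-a1 and Hba-a2, and between Hbb-bs and Hbb-bt, is uncertain. The erythroid markers summed to 4463 reads per library in G1 and 2788 in G2, 62.5% of G1, with 4234 in G3 and 3687 in G4. In G4 against G3 all 5 also lay below 0, with a median of -0.21. The part of the erythroid markers in the value of Hp was not tested. Macrophage markers lay below 0 in 14 of 14 with a median of -0.32 and none at an unadjusted p under 0.05. Lysozyme Lyz2 had -0.45 and the complement gene C1qa -0.42 in the authors' deposited table. The macrophage list summed to 2490 reads per library in G1 and 1966 in G2, beside 2378 in G3 and 1970 in G4. In G4 against G3, 11 of the 14 also lay below 0, with a median of -0.19. None of 11 lymphocyte and neutrophil markers in the tables reached a total of 100. Vsir, an immune checkpoint receptor of myeloid cells, had -0.50 in the authors' deposited table.

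Interferon genes had a median of -0.05, antigen presentation genes -0.19 (8 of 10 below 0) and collagen and matrix genes -0.14 (17 of 22 below 0), with none at an unadjusted p under 0.05 in these 3 lists. Some members lay above 0, such as Tapbp at a rebuilt 0.09 and Gbp2 at a rebuilt 0.01. Basement membrane collagen Col4a1 had -0.42 with an implied standard error of 0.49 in the authors' deposited table.

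Genes of the nerve contact had values on both sides of 0. Chrna2 (chromosome 14, 66135039 to 66152948), a neuronal-type acetylcholine receptor subunit, had derived levels of 173 in G1 and 108 in G2, and of 413 and 341 in G3 and G4. Its log2 was -0.69 with an implied standard error of 0.19 in the authors' deposited table (unadjusted p = 2.93e-04), so that G1 and G2 both lay well below the other groups. The list of 18 synaptic and denervation genes had a median of 0.07. Myog, which denervation is known to raise, and Hdac9 had rebuilt values of 0.57 each, with unadjusted p-values of 0.0183 and 0.0166. The myelin gene Mbp had -0.29 with an unadjusted p of 0.0302 in the authors' deposited table, and 9 of 10 Schwann cell markers lay below 0 with a median of -0.25. Ostn, a secreted muscle peptide, had a rebuilt 0.37.

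Some genes of cytokine and retinoid signalling had large values with wide errors. Cish, a feedback inhibitor of cytokine receptors that signal through STAT5, stood at 1006 in G1 and 189 in G2, beside 362 in G3 and 953 in G4. Its log2 of -2.41 in the authors' deposited table had an implied standard error of 1.08, with an implied variation of 91.6%. The related inhibitors Socs2 and Socs3, chosen after their values were seen, had -0.60 and -0.67 in the authors' deposited table, with unadjusted p-values of 0.0629 and 0.105. The retinoic acid hydroxylase Cyp26b1 had -1.60 with an implied standard error of 0.79 in the authors' deposited table. Clock genes had a median of 0.19 (10 of 16 above 0) and immediate early genes 0.15 (16 of 19 above 0), with none at an unadjusted p under 0.05 in either list, and the median implied variation of the immediate early genes was 36.3%. Ciart (rebuilt 0.83), Otud1 (rebuilt 0.83), Klf4 (rebuilt 0.71) and Tgtp1 (rebuilt 0.67) had, with Fasn, the largest rebuilt values that the naming rule allows (mean level 5 CPM or more), with unadjusted p-values from 0.114 to 0.336 over the 5.

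**Figure D5:**
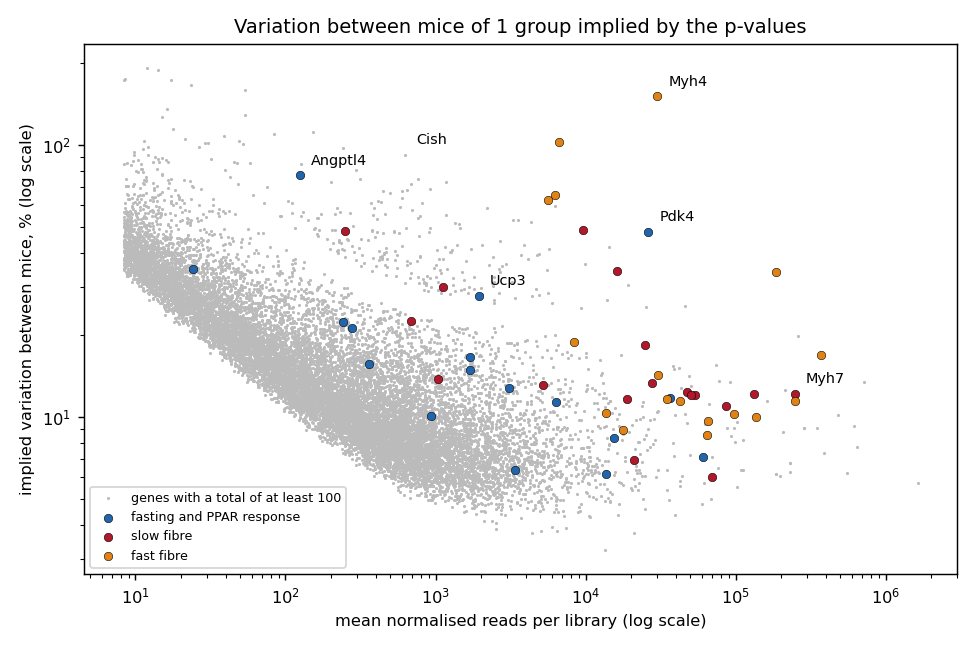
Implied variation between mice of a group (percent, log scale) against mean normalised reads per library (log scale) for 15494 genes, with fasting and PPAR, slow fibre and fast fibre genes coloured. Angptl4, Cish, Pdk4 and Myh4 lie far above genes of the same level, and Myh7 lies at 12.2%.

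Among the other genes with small p-values, the nuclear exporter Xpo4 had a rebuilt 0.63 (2403 to 3731 reads per library, unadjusted p = 8.69e-04), the trans-2,3-enoyl-CoA reductase-like Tecrl a rebuilt 0.63, and ceruloplasmin Cp, the copper-carrying ferroxidase, a rebuilt 0.55. The growth factor Fgf2 had a rebuilt 0.49 and the Rac activator Tiam1 a rebuilt 0.52. Efcab6 and Tbl2 had rebuilt values of 0.43 and 0.35. The transporter-like Mfsd4a had -0.56 in the authors' deposited table.

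Ribosomal genes had a median of 0.05, with 59 of 75 above 0, and Rplp2 had a rebuilt 0.19 at an unadjusted p of 0.0369. The ribosomal RNA gene CT010467.1, which held 2.89% of all normalised reads, had -0.39, Mir6236 -0.39 and Lars2, a mitochondrial tRNA synthetase, -0.47 in the authors' deposited table, each with an unadjusted p under 0.05. In G4 against G3 the same 3 had larger values, -0.96, -0.88 and -0.81 in the authors' deposited table. CT010467.1 stood at 874079 reads per library in G3 and 449048 in G4. The 3 thus lie near each other in value in both comparisons, so Lars2 is uncertain as a difference of that gene alone.

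The comparison G4 against G3 has no group in common with G2 against G1, so the difference between the 2 was tested across the 15494 genes. Of these 1 passed, 0.00645%, and it was Gm20775, a predicted gene of the Y chromosome. The log2 of Ucp3 in G4 against G3 was 0.08 in the authors' deposited table, and its difference of log2 was -1.91 with an adjusted p of 0.294 (Benjamini-Hochberg). That Ucp3 differed more in one comparison than in the other thus did not pass. The call of Gm20775, with a total of 174, was lost at a minimum total of 200 and under the t distribution. Tecrl had -0.46 in G4 against G3 in the authors' deposited table, beside its rebuilt 0.63, and an adjusted p of the difference of 0.376 (Benjamini-Hochberg).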

How the data were processed

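Per the labels' protocols, soleus RNA of 12 mice, 3 a group, was made into libraries with a KAPA stranded kit. The submitters' processing notes name edgeR, RSEM 1.2.15, Bowtie2 2.1.0 and the build mm10 or GRCm38. Their roles, and the step that made the p-values, are not given in the sources used here. The authors deposited 4 comparison tables. Each holds, per the file headers, 1 total for a gene (a signal, normalised reads summed over 12 libraries), a p-value, a signed fold change (a score) and a log2 fold change. They hold no values per library, so the planned quasi-likelihood test on counts could not be run, and the deposited p-values were used.

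A standard error was implied as the log2 over the normal quantile of its p. Log2 values of genes with a total of at least 100 that the G2 against G1 table leaves out were rebuilt by adding the log2 of G3 against G1 and of G4 against G3 and subtracting that of G4 against G2, and the variance by adding those of G3 against G1 and of G4 against G2 and subtracting that of G4 against G3. On 7792 listed genes the largest error of a rebuilt log2 was 1.02e-14 and that of a rebuilt log10 p 2.85e-06. P-values were adjusted by Benjamini-Hochberg over 23354 genes, and a gene is called at an adjusted p under 0.05. Group levels solve the total and the fold changes for 4 means of 3 libraries. The steps were tested on simulated data. Symbols were matched to GENCODE M21 for 28058 of 28997 genes, and coordinates are 1-based.

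The members and lists (44) were chosen with earlier results of these data known. Named are Nox1 and Cdh5, called genes, the 15 smallest p-values and 5 largest log2 values in each direction at a mean of at least 5 CPM (model and clone names left out), list members with an unadjusted p under 0.05 or otherwise the 4 most abundant, and partners set beside them. Some genes that this rule names are not reported here. Alternatives were the minimum total, the genes adjusted over, the t distribution, centring, and removal of trends on GC content, length and total by splines of 4 degrees of freedom. Python 3.11.15, numpy 2.4.6, scipy 1.17.1, pandas 2.3.3 and patsy 1.0.2 were used.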

Additional observations from a re-analysis of the deposited data

Results flagged for a closer look

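Gm20775, a predicted gene on the Y chromosome, was picked out because its values in G2 against G1 and in G4 against G3 differed from each other by a test of that difference. Its rebuilt log2 was 1.77 in G2 against G1 with an implied standard error of 0.86, and its log2 was -4.96 in G4 against G3 in the authors' deposited table. The difference of log2 was 6.73, with an adjusted p of 0.0357 (Benjamini-Hochberg over 15494 genes). Its total was 174 normalised reads over 12 libraries, and its derived level per library was 4.94 in G1 and 16.9 in G2, beside 35.0 in G3 and 1.13 in G4.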

How the results depend on the processing

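A Student t distribution with 8 degrees of freedom in place of the normal had the widest effect. It left 0 called genes in place of 1, with an adjusted p of 1 for Ucp3, and left 101 lower and 69 higher genes at an unadjusted p under 0.05, in place of 195 and 169. Under it the difference from G4 against G3 had 0 genes past the threshold in place of 1, and the same count was 0 at a minimum total of 200 and at 500, which leave out Gm20775. In the listed genes rebuilt standard errors equalled the deposited ones under the normal (ratio 1), and under the t distribution their ratio ran from 0.824 to 1.07 between the 5th and 95th percentiles. Under the other settings tried (minimum total, genes adjusted over, the deposited adjusted values, centring, trend removal, and rebuilt values for every gene) the called gene count was 1. Of 215 list medians over 43 lists, 0 moved by more than their median standard error and 6 took another sign, in 4 lists whose medians were at most 0.0473 in size. The call changed for 1 of 203 named genes, Ucp3.

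No paired analysis was possible because no table holds a value for a single library and the labels do not pair the mice. Leaving out single libraries, a count model and a filter on counts were not run for the same reason. Whether 1 mouse sets a value cannot be told, and this bears most on Myh4, Cish and Angptl4, whose implied variation was 151%, 91.6% and 77.3%. Genes with low totals had wide errors, with a median implied standard error of 0.437 over the 3874 genes with the lowest totals and 0.0971 over the 3874 with the highest.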
